A study of Mus musculus with 6 samples.

Results

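The genes described here are the NF-kB subunits and their inhibitors, measured by RNA-seq in RM-1, a line of mouse prostate cancer. The 10 genes were chosen by name: the subunit genes Nfkb1, Nfkb2, Rel, Rela and Relb and the inhibitor genes Nfkbia, Nfkbib, Nfkbie, Nfkbiz and Tnfaip3. Earlier results of these data were known when the choice was made. Nfkbiz is grouped with the inhibitors throughout, although its product also works as a cofactor at some genes. All 10 were among the 55487 genes of the deposited table, and all 10 passed the filter on low counts that left 14663 genes. The cells carried a lentivirus for Bhlhe22, a basic helix-loop-helix transcription factor (Bhlhe22 cells), or a blank lentivirus (vector cells), with 3 libraries in each group. Both groups were the same line in culture, with no further allele or agent in the labels. The sources used here do not give the promoter of the lentivirus, the time after infection or whether the cells were a clone or a pool. Nor do the labels say whether replicates were separate cultures, so p-values rest on a spread between libraries that may be technical.

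NF-kB factors are dimers of Rel family subunits. In resting cells the IkB proteins hold them in the cytoplasm. A signal from a cytokine or microbial receptor activates the IKK kinases, IkB is degraded, and the dimers enter the nucleus and bind kB sites in target genes. Several of the inhibitors are themselves targets, which makes them a feedback on the pathway, and Nfkb1 and Nfkb2 encode precursors that are processed into DNA-binding subunits. In tumor cells the pathway is known for driving cytokine and chemokine genes that act on myeloid cells. Transcript levels do not measure how much of the protein is active or in the nucleus.

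The libraries held 15464709 to 25129552 counts. Bhlhe22 itself had 0 counts in each vector library and 8706, 14785 and 17995 counts in Bhlhe22 replicates 1, 2 and 3. Bhlhe22 replicate 1, the shallowest library, stood further from its group than any other: the SD over genes of the log2 difference was 0.53 and 0.56 between it and replicates 2 and 3, against 0.39 to 0.42 for the other 4 pairs within groups. Of 13 immune cell markers, 8 had 0 counts in every library (Adgre1, Itgam, C1qa, Lyz2, S100a8, S100a9, Cd3e and Ncr1), Cd68 and Cd14 passed the filter, and the list summed to 26.6 to 28.6 FPKM in vector and 28.4 to 32.2 FPKM in Bhlhe22 libraries. Of the prostate markers, the luminal keratins Krt8 and Krt18 were abundant, while Krt5 and Pbsn had 0 counts in every library. Krt8 fell in Bhlhe22 cells (log2 fold change -0.47, edgeR adjusted p = 0.0047), while Krt18 (0.00) and Epcam (-0.01) were not called. Of 7 mesenchymal markers 1 rose (Pdgfrb, 0.53), 1 fell (Vim, -0.33) and 5 were not called, with a median log2 fold change of 0.16. Their sum, most of it Vim, was 289 to 302 FPKM in vector and 256 to 260.4 FPKM in Bhlhe22 libraries. Their part in the differences of the NF-kB genes was not tested. In bulk RNA, fewer cells of a type and less RNA per cell cannot be told apart.

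The sequences upstream of these genes are shown first because kB sites are the elements through which NF-kB acts on its own genes. The RefSeq table (GRCm38.p6) held 10 start sites for 7 of the 10 members, and none for Nfkb1, Relb and Nfkbiz. For 7 of the 10 starts, bases 1 to 30 after the start were found in a GENCODE M21 transcript of the gene. For the others they were not found. In the 250 bases before each start, a kB consensus site of 10 bases was searched on both strands, with overlapping matches allowed. It was found before 7 of the 10 starts and in 5 of the 7 genes, against 3.9% of all 32851 windows of that length. The GC content of the member windows was 46.4% to 77.6%, against a median of 52.4% over all windows. The shares were not matched for GC content. A match is a stretch of letters, not a measured binding site. A selection of the matches, leaving out the one before start 2 of Nfkb2 and giving 2 for Tnfaip3, is printed on the gene's strand with the match in capitals and up to 10 bases on each side.
Nfkb2, start 1: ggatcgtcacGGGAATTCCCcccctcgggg
Nfkb2, start 3: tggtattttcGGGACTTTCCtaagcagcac
Rel: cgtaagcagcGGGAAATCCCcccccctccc
Nfkbia: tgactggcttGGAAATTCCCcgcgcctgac
Nfkbie: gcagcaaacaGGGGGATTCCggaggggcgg
Tnfaip3: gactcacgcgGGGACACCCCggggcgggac
Tnfaip3, nearest the start: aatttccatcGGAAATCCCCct
The Nfkbia match ended 20 bases before the start and was on the other strand. The first start of Nfkb2 also had a match that ended 2 bases before it. No match was found in the windows of Rela and Nfkbib.

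Nfkbia and Nfkbib, the pair of inhibitor genes that changed in opposite directions, are printed in full here. The Nfkbia window, chr12:55492648-55492897 on the minus strand, has its kB match in capitals. For Nfkbib only the 90 bases chr7:28766645-28766734 on the minus strand are given, because the first exon of Sirt2, a deacetylase gene read in the other direction, begins beyond them. These bases are upstream of the RefSeq start but inside the GENCODE M21 gene model, in which 1 transcript begins further upstream. Of the 7 genes, only Nfkbia and Nfkbie have windows wholly outside their M21 models.
Nfkbia: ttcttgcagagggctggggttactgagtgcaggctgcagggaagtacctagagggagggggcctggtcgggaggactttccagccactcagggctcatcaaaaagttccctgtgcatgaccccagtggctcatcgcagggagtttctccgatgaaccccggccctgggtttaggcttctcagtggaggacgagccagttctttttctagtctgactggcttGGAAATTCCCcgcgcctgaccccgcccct
Nfkbib: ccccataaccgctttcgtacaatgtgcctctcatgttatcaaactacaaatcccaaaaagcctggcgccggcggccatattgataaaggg
The E-box CANNTG, the element that basic helix-loop-helix factors bind, was searched on both strands in the same windows and was present before 2 of the 10 starts (Nfkbie and the first start of Tnfaip3), against 66.2% of all windows. These shares were not matched for GC content either. Absence says only that these letters are not in this window.

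Of the 10 genes, 3 rose in Bhlhe22 cells, 1 fell and 6 were not called (edgeR quasi-likelihood test, Benjamini-Hochberg adjusted p under 0.05 over all tested genes). The inhibitor gene Nfkbib rose most, the subunit genes Relb and Rela rose less, and the inhibitor gene Nfkbia fell. By the same call 10.4% of all tested genes were higher, 9.28% were lower and 19.6% were called in either direction. The values of the 2 groups did not overlap in 7 of the 10 members, 4 higher and 3 lower. Among all tested genes 40.8% had groups that did not overlap, with 20.8% higher and 20% lower as shares of the tested genes. The median log2 fold change was 0.20 over the 5 subunit genes and -0.29 over the 5 inhibitor genes, against 0.01 over all tested genes. Each of these medians is the value of 1 gene, Nfkb1 for the subunits and Tnfaip3 for the inhibitors, and neither gene was called. Nfkbib, which rose most, had the opposite sign to the inhibitor median.

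**Figure D1:**
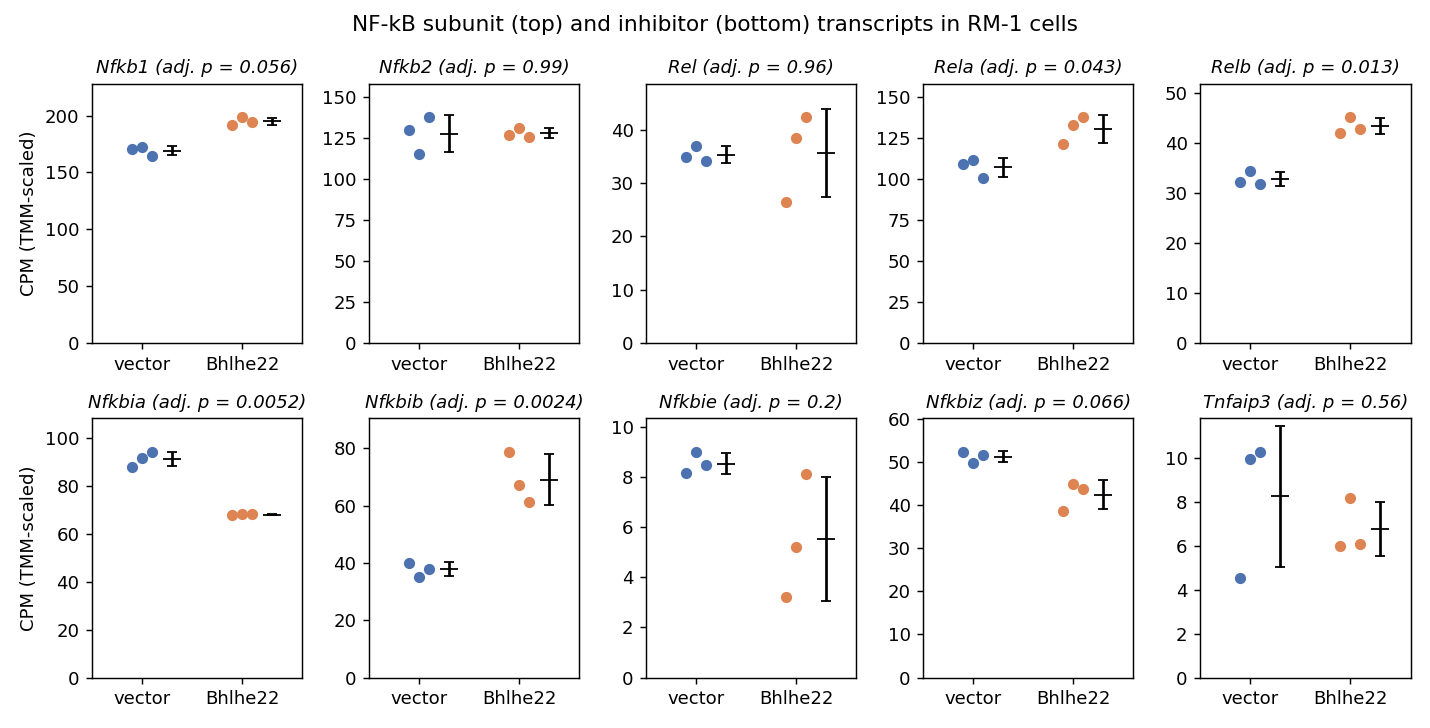
Each point is a library (CPM, the count scaled to the library total with TMM factors; vector blue, Bhlhe22 orange), with the group mean and SD beside it (n = 3), for the 5 subunit genes above and the 5 inhibitor genes below. The Nfkbib points of the Bhlhe22 cells lie between 61.4 and 78.6 CPM and those of the vector cells between 35.2 and 40.1 CPM, and the Nfkbia points separate the other way.

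Among the subunits, Rela encodes p65, the subunit with the main transactivation domain of the canonical pathway. Rela (ENSMUSG00000024927, chr19:5637483-5648130 in GRCm38, plus strand) was at 109, 112 and 101 CPM in vector replicates 1, 2 and 3 and at 121, 133 and 138 CPM in Bhlhe22 replicates 1, 2 and 3. Every Bhlhe22 library was above every vector library. The log2 fold change was 0.29 (SE 0.08, edgeR adjusted p = 0.043), an increase of 21.9%. This call was near the threshold: with 1 library left out it held in 1 of 6 fits, the one without Bhlhe22 replicate 1 (log2 fold change 0.33, edgeR adjusted p = 0.0044), and the adjusted p was 0.097 to 0.152 in the others. It held in 6 of 13 other settings.

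Relb encodes the partner of processed p100 in the non-canonical pathway and is itself a known NF-kB target. Relb (ENSMUSG00000002983, chr7:19606217-19629438, minus strand) was at 32.2, 34.3 and 31.9 CPM in vector replicates 1, 2 and 3 and at 42.1, 45.1 and 42.9 CPM in Bhlhe22 replicates 1, 2 and 3. The groups were separated by more than the range within either of them. The log2 fold change was 0.40 (SE 0.08, edgeR adjusted p = 0.013). It lost its call without vector replicate 1 (adjusted p = 0.070), vector replicate 3 (0.062) or Bhlhe22 replicate 2 (0.053). Over the 6 fits its log2 fold change lay between 0.38 and 0.44.

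Nfkb1 encodes p105, the precursor of p50. Nfkb1 (ENSMUSG00000028163, chr3:135584655-135691547, minus strand) was at 170, 173 and 165 CPM in vector and at 192, 198 and 194 CPM in Bhlhe22 replicates 1, 2 and 3. The groups did not overlap, but the difference did not pass the test (log2 fold change 0.20, 95% interval 0.06 to 0.35, edgeR adjusted p = 0.056). It passed without Bhlhe22 replicate 1 (0.011) and with DESeq2 (adjusted p = 0.036). It also passed with a correction for GC content and length, added after seeing the data (edgeR adjusted p = 0.011).

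Nfkb2 encodes p100, which acts as an inhibitor until it is processed to p52. Nfkb2 (ENSMUSG00000025225, chr19:46304320-46312385, plus strand) was at 130, 116 and 138 CPM in vector and at 127, 131 and 126 CPM in Bhlhe22 replicates 1, 2 and 3, so the Bhlhe22 values lay inside the vector range. The log2 fold change was 0.00 with a 95% interval of -0.19 to 0.19 (edgeR adjusted p = 0.985). Genes on the other strand (among them Psd) cover 18.1% of its exon bases, and the sources used here do not state whether counting used strand.

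Rel encodes c-Rel, a subunit best known from lymphocytes. Rel (ENSMUSG00000020275, chr11:23736847-23770970, minus strand) was at 34.8, 37.0 and 34.1 CPM in vector and at 26.4, 38.3 and 42.3 CPM in Bhlhe22 replicates 1, 2 and 3. Bhlhe22 replicate 1 lay below all vector libraries and the other 2 lay above them. The log2 fold change was 0.02, with a 95% interval of -0.37 to 0.41 (edgeR adjusted p = 0.957). Without Bhlhe22 replicate 1 it was 0.19 (edgeR adjusted p = 0.116), and without Bhlhe22 replicate 3 it was -0.12.

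**Figure D2:**
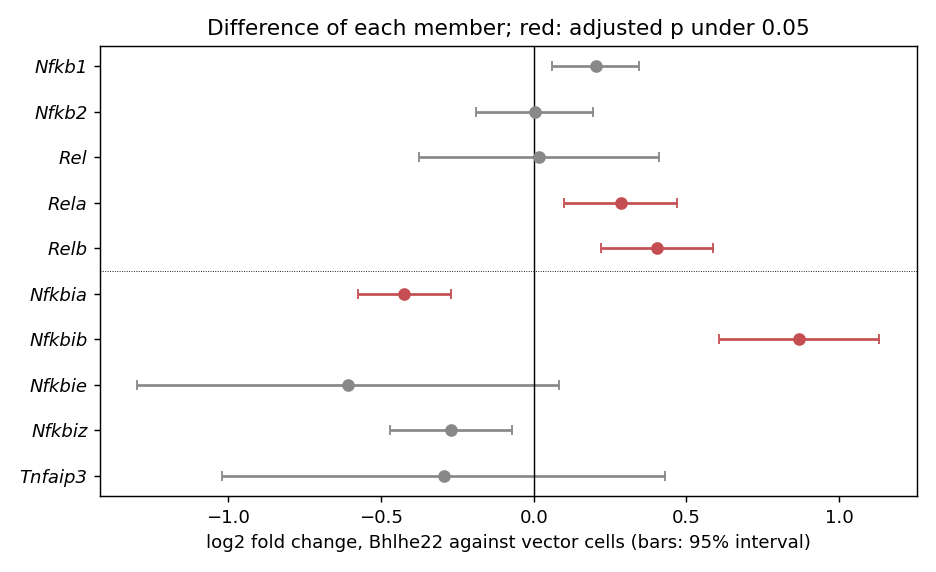
Points are log2 fold changes of Bhlhe22 against vector cells from edgeR and bars are 95% intervals (3 libraries per group); red marks an adjusted p under 0.05, and the dotted line divides subunits from inhibitors. Nfkbib at 0.87 and Nfkbia at -0.42 lie on opposite sides of 0, and Nfkbie and Tnfaip3 have the widest intervals among the inhibitors.

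Nfkbia encodes IkB-alpha, the fast feedback inhibitor that NF-kB induces and that strips dimers from DNA. Nfkbia (ENSMUSG00000021025, chr12:55489410-55492647, minus strand) was at 87.8, 91.6 and 93.9 CPM in vector replicates 1, 2 and 3 and at 67.7, 68.2 and 68.0 CPM in Bhlhe22 replicates 1, 2 and 3. The Bhlhe22 libraries had a coefficient of variation of 0.377% and all lay below the vector libraries. The log2 fold change was -0.42 (SE 0.07, edgeR adjusted p = 0.0052). The call held without each library in turn (-0.45 to -0.40). No exon of Nfkbia is shared with another gene.

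Nfkbib encodes IkB-beta, which is less dependent on NF-kB for its transcription and can hold dimers for longer. Nfkbib (ENSMUSG00000030595, chr7:28758251-28767512, minus strand) was at 40.1, 35.2 and 38.0 CPM in vector replicates 1, 2 and 3 and at 78.6, 67.1 and 61.4 CPM in Bhlhe22 replicates 1, 2 and 3. The lowest Bhlhe22 library was far above the highest vector library. The fold was 1.83, or 0.87 ± 0.11 on the log2 scale (SE; adjusted p = 0.0024 by edgeR). The call held without each library in turn (0.76 to 0.95) and in all 13 other settings tried.

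Nfkbib overlaps other genes on the opposite strand over 16.4% of its exon length. Ccer2 accounts for 314 shared bases and had 0 counts in every library. Sirt2 accounts for 42 shared bases. Sirt2, named after its values were seen, went from 34.4 ± 4.36 to 46.6 ± 3.23 CPM (SD, n = 3; log2 fold change 0.44, edgeR adjusted p = 0.034). It kept its call in 2 of the 6 fits without 1 library. Whether reads of Sirt2 enter the Nfkbib count was not tested.

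Nfkbie encodes IkB-epsilon, a feedback inhibitor that acts later than IkB-alpha. Nfkbie (ENSMUSG00000023947, chr17:45555703-45563169, plus strand) was at 8.15, 8.98 and 8.47 CPM in vector and at 3.22, 5.22 and 8.13 CPM in Bhlhe22 replicates 1, 2 and 3, on 49 to 204 counts. The groups did not overlap, but the highest Bhlhe22 library nearly reached the lowest vector library. The difference did not pass the test (log2 fold change -0.61, 95% interval -1.30 to 0.08, edgeR adjusted p = 0.197). It was -1.0 without Bhlhe22 replicate 3 (edgeR adjusted p = 0.029) and -0.35 without Bhlhe22 replicate 1 (0.202).

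Nfkbiz encodes IkB-zeta, a nuclear member that works as a cofactor at secondary response genes such as Lcn2. Nfkbiz (ENSMUSG00000035356, chr16:55811375-55838899, minus strand) was at 52.2, 49.7 and 51.6 CPM in vector and at 38.7, 44.9 and 43.6 CPM in Bhlhe22 replicates 1, 2 and 3. All Bhlhe22 libraries were below the vector libraries. The difference did not pass the test (log2 fold change -0.27, 95% interval -0.47 to -0.07, edgeR adjusted p = 0.066). It passed with DESeq2 (adjusted p = 0.045), with upper quartile scaling (edgeR adjusted p = 0.049) and without Bhlhe22 replicate 1 (-0.22, 0.032). It also passed with the correction for GC content and length (edgeR adjusted p = 0.019).

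Tnfaip3 encodes A20, a ubiquitin-editing enzyme that ends signaling from TNF and Toll-like receptors. Tnfaip3 (ENSMUSG00000019850, chr10:19000910-19015657, minus strand) was at 4.54, 9.95 and 10.3 CPM in vector and at 5.98, 8.16 and 6.09 CPM in Bhlhe22 replicates 1, 2 and 3, on 82 to 219 counts. Vector replicate 1 was the lowest of all 6 and the groups overlapped. The log2 fold change was -0.29, with a 95% interval of -1.02 to 0.43 (edgeR adjusted p = 0.556). Without vector replicate 1 it was -0.58 (edgeR adjusted p = 0.101).

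Levels of different genes can be compared only per length, so they are given in FPKM, fragments scaled to gene length and library size, as the authors deposited them. In vector cells Nfkbia was the highest at 46.3 ± 1.62 FPKM, followed by Nfkb2 at 20.0 ± 1.74, Rela at 19.1 ± 1.01, Nfkbib at 12.8 ± 0.815 and Nfkb1 at 10.5 ± 0.246. Nfkbiz at 7.00 ± 0.172, Relb at 5.52 ± 0.228, Rel at 4.76 ± 0.208, Nfkbie at 1.26 ± 0.0635 and Tnfaip3 at 0.595 ± 0.232 FPKM completed the order (SD, n = 3). In that order only the neighbours Nfkb2 and Rela had ranges that overlapped. In Bhlhe22 cells Nfkbia remained the highest at 34.0 ± 0.352 FPKM, and Nfkbib stood beside Rela, at 23.0 ± 2.75 and 23.0 ± 1.65 FPKM with ranges that overlapped on this scale. Nfkb2 (19.8 ± 0.453) and Nfkb1 (11.9 ± 0.238) followed, and Relb (7.19 ± 0.279) was above Nfkbiz (5.72 ± 0.470), the reverse of their order in vector cells. The ranges of Nfkbiz and Rel (4.74 ± 1.13), and of Nfkbie (0.805 ± 0.366) and Tnfaip3 (0.479 ± 0.0870), overlapped in Bhlhe22 cells.

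The gene lengths behind these FPKM values were not the merged exon lengths. In 97.5% of 10426 well-covered genes the length equalled, within 1 base, the sum of all distinct annotated exons in GENCODE M21, in which bases covered by several exon models count more than once, and in 12.9% it equalled the merged length. For the members the ratio of the length used to the merged length ran from 1 in Rel to 1.83 in Rela and 2.24 in Nfkbie. On FPKM rescaled to merged exon length, Rela in vector cells was at 35.1 ± 1.85, apart from and above Nfkb2 at 28.0 ± 2.44. In Bhlhe22 cells Rela was at 42.2 ± 3.03 on that scale and Nfkbia at 41.8 ± 0.432, with ranges that overlapped, while Nfkbib at 31.5 ± 3.77 was apart from and below both. Folds within a gene do not depend on this length.

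The make-up of the classical inhibitors, described here without a test, differed between the groups more than their sum. Nfkbia, Nfkbib and Nfkbie together came to 59.3, 59.9 and 61.9 FPKM in vector and to 60.2, 57.3 and 56.2 FPKM in Bhlhe22 replicates 1, 2 and 3, which overlap. The share of Nfkbia in that sum was 75.1%, 77.8% and 77.2% in vector and 55.9%, 59.6% and 61.1% in Bhlhe22 replicates 1, 2 and 3. The share of Nfkbib was 21.2% ± 1.49 in vector and 39.7% ± 3.31 in Bhlhe22 cells (SD, n = 3). The ratio of the 2 levels, chosen after the values were seen, was 3.29 to 3.91 in vector libraries and 1.29 to 1.66 in Bhlhe22 libraries. On merged exon lengths the Nfkbia share was 73.7% ± 1.43 in vector and 55.7% ± 2.44 in Bhlhe22 cells.

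**Figure D3:**
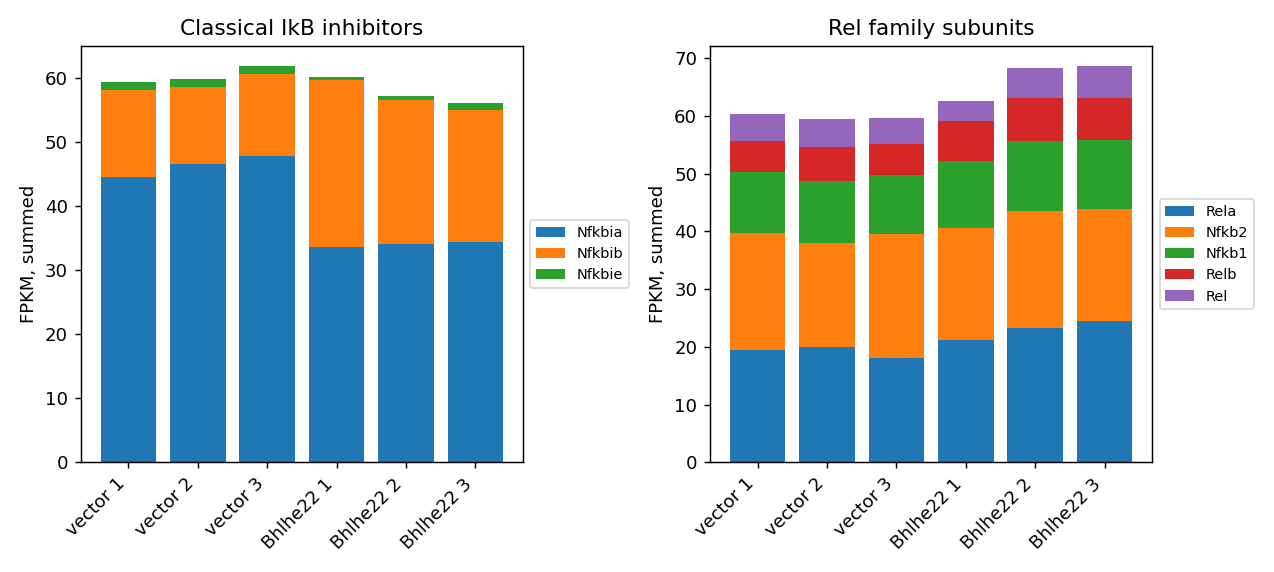
Stacked bars give the summed FPKM of the 3 classical inhibitors (left) and the 5 subunits (right) in each of the 6 libraries. The inhibitor bars stay between 56.2 and 61.9 FPKM while the Nfkbib part grows from 21.2% to 39.7% on average.

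The subunits summed to 59.6 to 60.4 FPKM in vector and 62.6 to 68.7 FPKM in Bhlhe22 libraries, which did not overlap. Rela made up 31.9% ± 1.69 and 34.5% ± 0.894 of that sum in vector and Bhlhe22 cells, Nfkb2 33.4% ± 2.83 and 29.7% ± 1.28, and Relb 9.22% ± 0.428 and 10.8% ± 0.335. The ranges were apart for Rela and Relb on FPKM, and on merged exon lengths for Relb but not for Rela. The ratio of the 3 classical inhibitors to the 5 subunits was 0.982, 1.00 and 1.04 in vector and 0.960, 0.839 and 0.817 in Bhlhe22 replicates 1, 2 and 3. On merged exon lengths the ratio was 0.833, 0.849 and 0.881 in vector and 0.815, 0.714 and 0.697 in Bhlhe22 replicates 1, 2 and 3. On both scales the highest Bhlhe22 value, in replicate 1, came close to the lowest vector value. Relb and Nfkb2, the non-canonical pair, had a summed level relative to Nfkb1, Rela and Rel of 0.744 ± 0.0749 in vector and 0.682 ± 0.0450 in Bhlhe22 cells, with ranges that overlapped. Taken as a mean of log2 FPKM over the genes instead of a sum, the difference of that ratio turned from -0.12 to 0.05 on the log2 scale.

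The genes whose profile over the 6 libraries was nearest to each called member are given by Euclidean distance of mean-centred log2 CPM. Being picked as the smallest distances, they lie below the median distance by construction, and shared control was not tested. Nearest to Nfkbib were Ciapin1, an iron-sulfur protein assembly gene (distance 0.09), Tmem11 (0.14) and Psph, a serine synthesis enzyme gene (0.14), against a median distance of 1.18 over all genes compared. Castor1, an arginine sensor gene, Tcf7l1 and Recql were nearest to Nfkbia (0.06 each, median 0.70). Rraga, Zfp800 and Pvr were nearest to Relb (0.05, 0.06 and 0.07) and Tmed5, Cog3 and Stx7 to Rela (0.05, 0.05 and 0.06).

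The rest of the pathway was read from lists of receptors and adaptors, the IKK complex and upstream kinases with their partners, further inhibitors with the degradation machinery, and target genes. Among 25 receptor and adaptor genes 2 rose, 1 fell and 22 were not called, with a median log2 fold change of 0.05. That was 12% called, against 19.6% of all tested genes. Cd40, a TNF receptor family member that signals through both arms of the pathway, went from 8.15, 5.97 and 6.88 CPM in vector to 14.3, 13.1 and 11.5 CPM in Bhlhe22 replicates 1, 2 and 3, a log2 fold change of 0.89 ± 0.15 (SE; adjusted p = 0.0074 by edgeR). Myd88, the adaptor of Toll-like and IL-1 receptors, went from 49.5 ± 2.07 to 67.3 ± 3.61 CPM (0.44, edgeR adjusted p = 0.0091). Traf5, an adaptor of TNF family receptors, fell from 12.4 ± 1.16 to 8.42 ± 0.394 CPM (-0.56, edgeR adjusted p = 0.015). Cd40 and Myd88 held whichever library was left out, and Traf5 in 3 of 6 such fits. Of the exon length of Myd88, 11.3% is shared with Acaa1a on the other strand. The most abundant genes not called were Rbck1, of the linear ubiquitin ligase (log2 fold change -0.07, 95% interval -0.29 to 0.16), and the TNF receptor gene Tnfrsf1a (0.11, -0.03 to 0.25).

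Of 13 genes of the IKK complex and upstream kinases with their partner proteins, 2 rose, 0 fell and 11 were not called. The share called was 15.4%, against 19.6% of all tested genes, and the median log2 fold change was -0.02. Chuk, which encodes the IKK-alpha kinase, went from 80.5, 81.4 and 76.9 CPM to 96.3, 114 and 113 CPM, a log2 fold change of 0.44 ± 0.09 (SE; adjusted p = 0.013 by edgeR). Tab2, an adaptor of the TAK1 kinase, went from 128 ± 13.0 to 189 ± 36.2 CPM (0.56, edgeR adjusted p = 0.039). Neither call was stable to leaving out a library: Chuk kept it in 2 of 6 fits and Tab2 in 1. Without any 1 vector replicate or Bhlhe22 replicate 2 no gene of this list was called higher. Ikbkg, which encodes the IKK scaffold NEMO, had a log2 fold change of -0.32 (95% interval -0.63 to 0.00, edgeR adjusted p = 0.149), and Map3k7, which encodes TAK1, of -0.19 (-0.41 to 0.03).

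Of 16 tested genes of the further inhibitors and the degradation machinery 2 rose, 1 fell and 13 were not called. The share called was 18.8%, against 19.6% of all tested genes, and the median log2 fold change was -0.06. The genes called belong to the ubiquitin ligase that marks phosphorylated IkB. Its substrate receptors Fbxw11 (from 240 ± 8.49 to 306 ± 24.8 CPM, log2 fold change 0.35, edgeR adjusted p = 0.023) and Btrc (0.31, adjusted p = 0.029) rose, and the RING subunit gene Rbx1 fell (-0.47, edgeR adjusted p = 0.014). With 1 library left out Fbxw11 and Btrc each kept their call in 1 of 6 fits and Rbx1 in 2. Of 18 genes listed, Nfkbid (0 counts in every library) and Tnip3 did not pass the filter. Tax1bp1 (log2 fold change 0.04, 95% interval -0.11 to 0.19) and Skp1a (-0.17, -0.70 to 0.36) were the most abundant genes not called.

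Target genes split in both directions. Of 34 genes listed 28 were tested, of which 6 rose, 8 fell and 14 were not called. That was 50% called, against 19.6% of all tested genes, and the median log2 fold change was -0.01. The 6 that rose include Saa3, which passed the filter only through its Bhlhe22 libraries. Tnf and Il1b had 0 counts in every library, and Il1a, Icam1, Bcl2a1b and Cd83 did not pass the filter. The list was drawn up with earlier results for some of its chemokines and cytokines known. The members and the other lists were also chosen with earlier results of these data known. The shares of calls given for all of them are therefore descriptions.

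Lcn2, an iron-scavenging acute-phase protein and a target that needs IkB-zeta in other cells, was at 1.61, 1.99 and 1.73 CPM in vector replicates 1, 2 and 3 and at 12.6, 10.8 and 12.0 CPM in Bhlhe22 replicates 1, 2 and 3. All Bhlhe22 libraries were far above all vector libraries (log2 fold change 2.73, SE 0.14, edgeR adjusted p = 8.4e-05). Saa3, a serum amyloid, had a log2 fold change of 4.02 (SE 0.37, edgeR adjusted p = 6.5e-04) and Ptgs2, the inducible prostaglandin synthase, of 0.79. Saa3 was near the floor in vector cells, at 14, 7 and 9 counts (0.78, 0.34 and 0.42 CPM) in replicates 1, 2 and 3. In Bhlhe22 replicates 1, 2 and 3 it had 171, 148 and 151 counts, and it passed the filter only through these libraries. Its log2 fold change was 1.635 to 4.024 over the 13 other settings. The chemokine genes Cxcl10 (-1.04) and Ccl2 (-0.99) and the urokinase gene Plau (-0.71) fell. These 6 genes passed the test whichever library was left out. Ier3 (log2 fold change 0.04, 95% interval -0.12 to 0.19) and Csf1 (0.16, -0.04 to 0.36) were the most abundant targets not called.

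**Figure D4:**
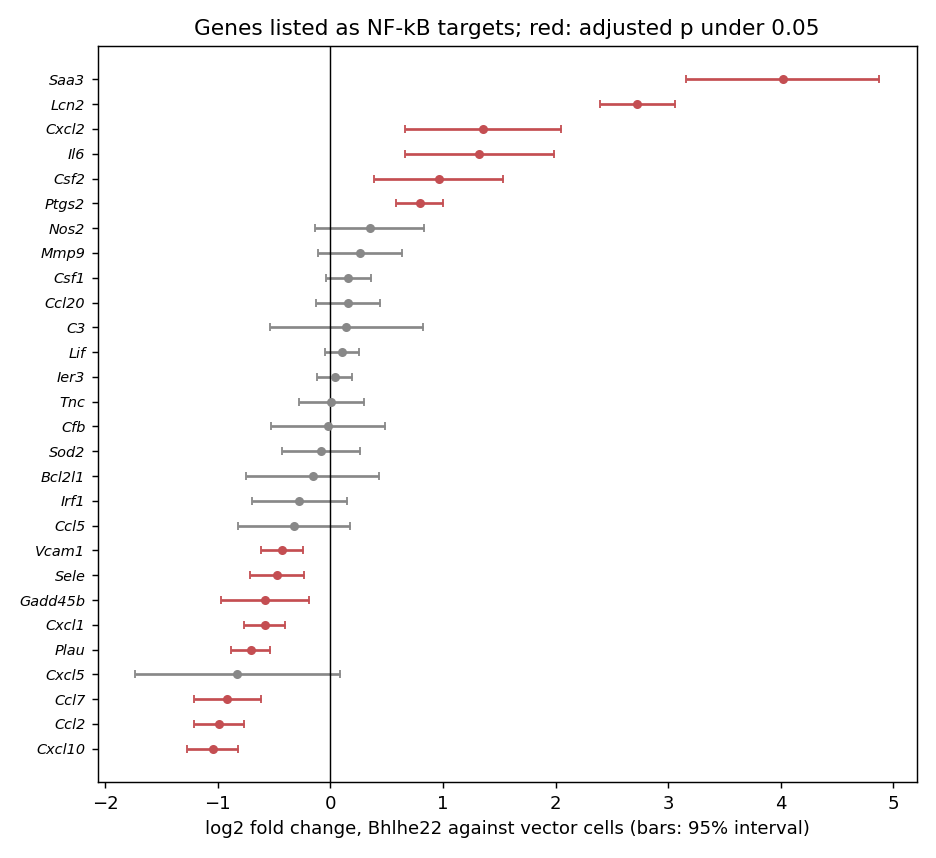
Log2 fold changes of the 28 tested target genes in order of size, with 95% intervals (3 libraries per group); red marks an adjusted p under 0.05. Lcn2 and Saa3 lie far to the right at 2.73 and 4.02, and 8 called genes lie to the left of 0. Saa3 had only 14, 7 and 9 counts in vector replicates 1, 2 and 3.

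The members' differences under each alternative setting are plotted last. The calls of Nfkbia and Nfkbib held in every fit that left out a library, and those of Relb and Rela in 3 and 1 of the 6.

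**Figure D5:**
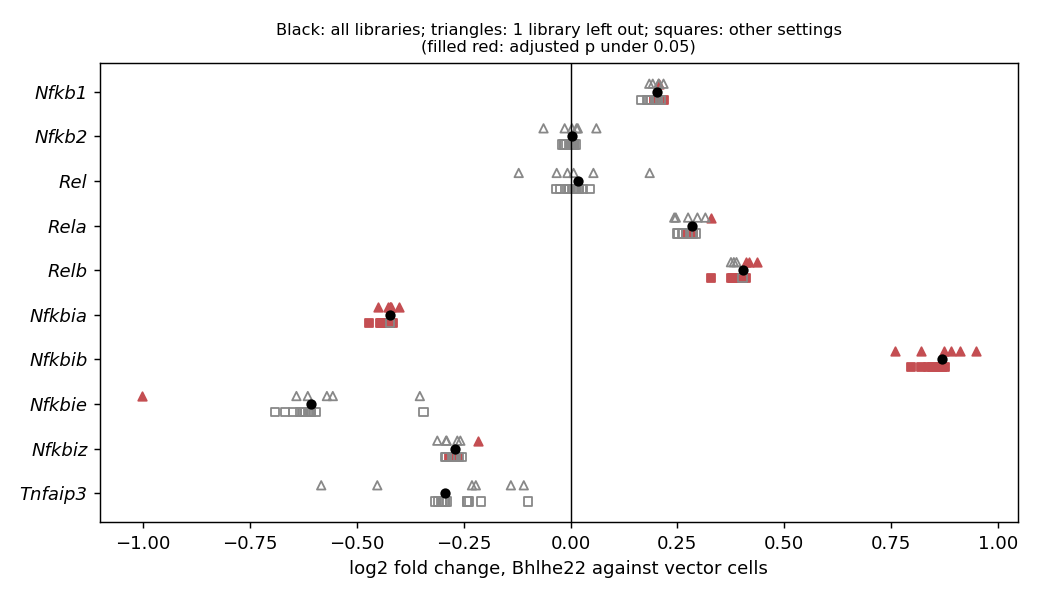
For each member the black point is the log2 fold change with all libraries, triangles leave out 1 library and squares are the 13 other settings; filled red means adjusted p under 0.05. Rel and Nfkb2 change sign among the fits that leave out a library. Nfkbie runs from -1.0 to -0.34, and Nfkbia and Nfkbib stay on their own side of 0.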

How the data were processed

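Total RNA of RM-1 cells was sequenced in 6 libraries, 3 per group. Per the submitters' processing notes, CASAVA 1.8, HISAT2 2.1.0, StringTie 1.3.4b and edgeR were used on GRCm38; the sources used here do not say which tool made which column, the annotation release or the strandedness. Per the file headers the authors deposited raw counts and FPKM values per gene. In all 10435 genes that had 100 counts or more per library both gave the same gene length in all libraries within 0.001%.

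Counts were fitted with edgeR 4.0.16 in R 4.3.3 (TMM, filterByExpr with minimum count 10 and minimum total count 15, robust quasi-likelihood), adjusted by Benjamini-Hochberg over all 14663 tested genes. The fit was tested on simulated data. Intervals are 95% from the fit's standard error. Gene models and overlaps came from GENCODE M21 and upstream sequences from RefSeq (GRCm38.p6). Members and lists were chosen with earlier results of these data known. Named beside the 10 members and Bhlhe22 were up to 6 called genes with the smallest adjusted p and the 2 most abundant uncalled genes of each list, and the 3 genes nearest in profile to each called member. Alternatives used DESeq2 1.42.0, limma 3.58.1 (voom, and log2 FPKM with pseudocounts of 1 and 0.1), scaling by RLE, by library size alone and by upper quartile, no filter, 1 CPM in 3 samples, no robust estimation, a replicate block, glmTreat at 1.2-fold and each library left out. A correction for GC content and length (splines with 5 degrees of freedom) was added after seeing the data. Python 3.11.15, pandas 2.3.3, numpy 2.4.6 and matplotlib 3.10.9 made tables and plots.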

Additional observations from a re-analysis of the deposited data

How the results depend on the processing

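Among the 10 members, none changed direction past the threshold under the settings tried. With 1 library left out, 715 to 2345 genes of the table were called higher and 633 to 2337 lower (1520 and 1361 with all libraries). Over the same fits, members called higher ranged from 1 to 4 and lower from 1 to 2, genes of the IKK and kinase list from 0 to 3 and 0 to 1, receptors and adaptors from 2 to 4 and 0 to 2, genes of the inhibitor and degradation list from 0 to 2 and 0 to 2, and target genes from 3 to 7 and 5 to 10. Leaving out Bhlhe22 replicate 1 gave the most calls over all genes and leaving out vector replicate 1 the fewest.

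A test against a 1.2-fold change (glmTreat) called 685 genes higher and 579 lower. It kept 1 member higher (Nfkbib) and 0 lower, and 0 genes of the IKK and kinase list higher. Of the receptors and adaptors it kept 1 higher and 0 lower, and of the inhibitor and degradation list 0 higher and 0 lower. Among the target genes 5 stayed higher and 5 lower. The correction for GC content and length, chosen after seeing the data, called 2044 genes higher and 2061 lower. It called 3 members higher (Nfkb1, Relb and Nfkbib) and 2 lower (Nfkbia and Nfkbiz). Of the IKK and kinase list it called 2 genes higher and 2 lower, and of the receptors and adaptors 3 higher and 2 lower. In the inhibitor and degradation list 2 genes were called higher and 3 lower. Upper quartile scaling called 3 members higher and 2 lower. DESeq2 called 4 members higher and 2 lower, and 2 genes of the IKK and kinase list higher and 1 lower. limma on log2 FPKM, with either pseudocount, called 1 gene of the IKK and kinase list higher. Both limma fits and the fit with no filter called 1 gene of the inhibitor and degradation list higher, Fbxw11 of the IkB ligase. The ratio of Nfkb2 and Relb to the other subunits moved from -0.12 to 0.047 (log2) on means of log2 FPKM. The causes of these differences were not tested.

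With the replicate number as a block, 1086 genes were higher and 993 lower, 2 members higher and 1 lower, and 1 gene of the inhibitor and degradation list higher (Fbxw11). Rela lost its call under the block (edgeR adjusted p = 0.094), as it did with library size alone (0.062), no filter (0.063), limma on log2 FPKM (0.063 and 0.064), the GC and length correction (0.062) and glmTreat (0.552). Deviations of same-numbered samples correlated at 0.0293, 0.0214 and 0.0156, so the numbers were not taken as pairing. Nfkbie and Tnfaip3 had the fewest counts of the members, 49 to 219 per library, and coefficients of variation up to 44.7% and 38.9% within a group.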
